A study of Mus musculus with 12 samples.

Results

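Transcripts of 7 genes of the endoplasmic reticulum (ER) were followed in 12 mouse livers: the chaperone Hspa5, its J-domain partners Dnajb9, Dnajb11 and Dnajc3, the luminal proteins Sdf2l1 and Creld2, and the degradation gene Herpud1. They were chosen by name as ER chaperone and degradation genes and are 7 of the 51609 gene rows of the deposited table, and all 7 passed the filter on low counts that 17652 genes passed. Bulk liver RNA was sequenced after rRNA depletion from 4 groups of 3 mice on a C57BL/6 background, aged 5 to 7 weeks. The groups were wild-type or labelled RelaΔhepStat3Δhep, each given plain water or 2% dextran sodium sulfate (DSS, which injures the colon) in the water for 6 days. The wild-type mice were Cre-negative littermates that carry the floxed alleles, and Cre in the RelaΔhepStat3Δhep mice is driven by the albumin promoter, so the other liver cells keep both genes. The comparisons ask how colitis and the loss of both transcription factors in hepatocytes bear on these transcripts.

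Secreted and membrane proteins fold in the ER, where Hspa5 (BiP) binds unfolded chains and J-domain proteins drive its cycle. When unfolded proteins build up, the sensors Ern1 (IRE1), Atf6 and Eif2ak3 (PERK) start the unfolded protein response, which raises chaperones and the machinery that returns failed proteins to the cytosol for degradation. Hepatocytes secrete most plasma proteins, and the acute-phase response, driven largely by STAT3 and NF-κB, adds to what their ER must fold.

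Promoters of that response can carry ER stress elements, and the 4 of the 7 promoters in which a full element was found are shown; none was found in those of Dnajb9, Dnajb11 and Sdf2l1. The windows are the 250 bases before the gene start in RefSeq on GRCm38.p6, all 7 genes were found in that table of 32851 promoters, and capitals mark the element. The ER stress element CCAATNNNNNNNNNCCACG, searched on both strands, was present in 37 (0.113%) of all promoters, among them Hspa5 at chr2:34771840-34772089, Dnajc3 at chr14:118937682-118937931 and Creld2 at chr15:88819396-88819645, all on the plus strand.
Hspa5: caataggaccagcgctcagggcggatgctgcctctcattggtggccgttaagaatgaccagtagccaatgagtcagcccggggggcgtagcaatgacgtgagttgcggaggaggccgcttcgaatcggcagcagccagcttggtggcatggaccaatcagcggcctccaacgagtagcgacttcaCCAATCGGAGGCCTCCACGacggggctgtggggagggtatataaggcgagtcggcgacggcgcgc
Dnajc3: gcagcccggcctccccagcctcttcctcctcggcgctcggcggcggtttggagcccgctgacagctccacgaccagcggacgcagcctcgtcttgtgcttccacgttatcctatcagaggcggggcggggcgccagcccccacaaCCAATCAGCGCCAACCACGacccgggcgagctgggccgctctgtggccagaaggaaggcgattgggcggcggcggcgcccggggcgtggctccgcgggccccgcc
Creld2: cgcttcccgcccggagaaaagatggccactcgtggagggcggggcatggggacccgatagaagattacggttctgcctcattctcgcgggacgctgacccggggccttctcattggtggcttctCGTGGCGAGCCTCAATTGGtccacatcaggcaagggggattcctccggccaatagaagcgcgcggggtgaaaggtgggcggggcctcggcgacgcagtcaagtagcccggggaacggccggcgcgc
Herpud1: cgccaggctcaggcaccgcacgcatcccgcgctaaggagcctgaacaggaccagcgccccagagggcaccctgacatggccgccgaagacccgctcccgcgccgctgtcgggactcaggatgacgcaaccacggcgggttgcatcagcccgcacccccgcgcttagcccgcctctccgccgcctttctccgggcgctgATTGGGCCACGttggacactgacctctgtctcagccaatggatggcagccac
The element lay from 65 to 47 bases before the start of Hspa5, from 105 to 87 bases before that of Dnajc3, and on the opposite strand from 126 to 108 bases before that of Creld2. Herpud1, at chr8:94386179-94386428 on the plus strand, held the shorter element ATTGGNCCACG from 52 to 42 bases before its start, a match found in 10 (0.0304%) of the promoters, in which ATTGG is the reverse complement of CCAAT. The core TGACGTGG of the unfolded protein response element was in 185 (0.563%) of all promoters and in none of these 7. The separate letters are common, since CCAAT was in 33.8% of all promoters and in 7 of 7 members, and CCACG in 28.3% and in 6 members, all but Dnajb11. A match describes letters in a window and says nothing of binding in these livers.

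The libraries held 65879529 to 82850098 estimated counts, and each member had between 1626 and 117464 counts in every library, so counting error was small beside the spread between mice. Rela was not lower in the livers labelled RelaΔhepStat3Δhep (39.5 to 62.3 CPM over all 12 livers), and Stat3 was 43.0 to 74.8 CPM in them against 45.7 to 330 in wild-type livers, so these livers are called knockout-labelled here. The paper characterized its strains by genotyping and by western blots of RelA and Stat3 in liver extracts. Counts over a whole gene in whole liver do not measure the protein in hepatocytes. The 3 DSS-treated knockout-labelled livers had Xist at 903 to 1283 CPM and Y-linked transcripts at 0.12 CPM or less, the third untreated wild-type liver had 1143 CPM of Xist with 30.1 CPM of Y-linked transcripts, and the other 8 livers had at most 29.0 CPM of Xist. Sex and DSS therefore cannot be told apart within the knockout-labelled mice. The second DSS-treated wild-type liver had a normalization factor of 0.758, the lowest of the 12, and gave 18.7% of its counts to the acute-phase genes described further on. In whole liver, fewer cells of a type and less RNA per cell cannot be told apart.

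Values are counts scaled to the library size by TMM and given as CPM, in the order of replicates 1, 2 and 3, and means are given with the SD over 3 mice. Per kilobase of exon, the mean level over the 12 livers was highest for Hspa5 (349.6 CPM per kb), followed by Herpud1 (128.8), Dnajc3 (84.7), Dnajb9 (54.0), Sdf2l1 (45.0), Creld2 (37.4) and Dnajb11 (31.6). On this scale the disulfide isomerase P4hb (496 CPM per kb) lay above Hspa5, and the lectin chaperone Calr (342) lay beside it. Between the highest and the lowest liver the level differed 6.01-fold for Herpud1, 5.79-fold for Sdf2l1 and 4.38-fold for Creld2, and 1.71-fold for Dnajc3, the steadiest of the 7.

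**Figure D1:**
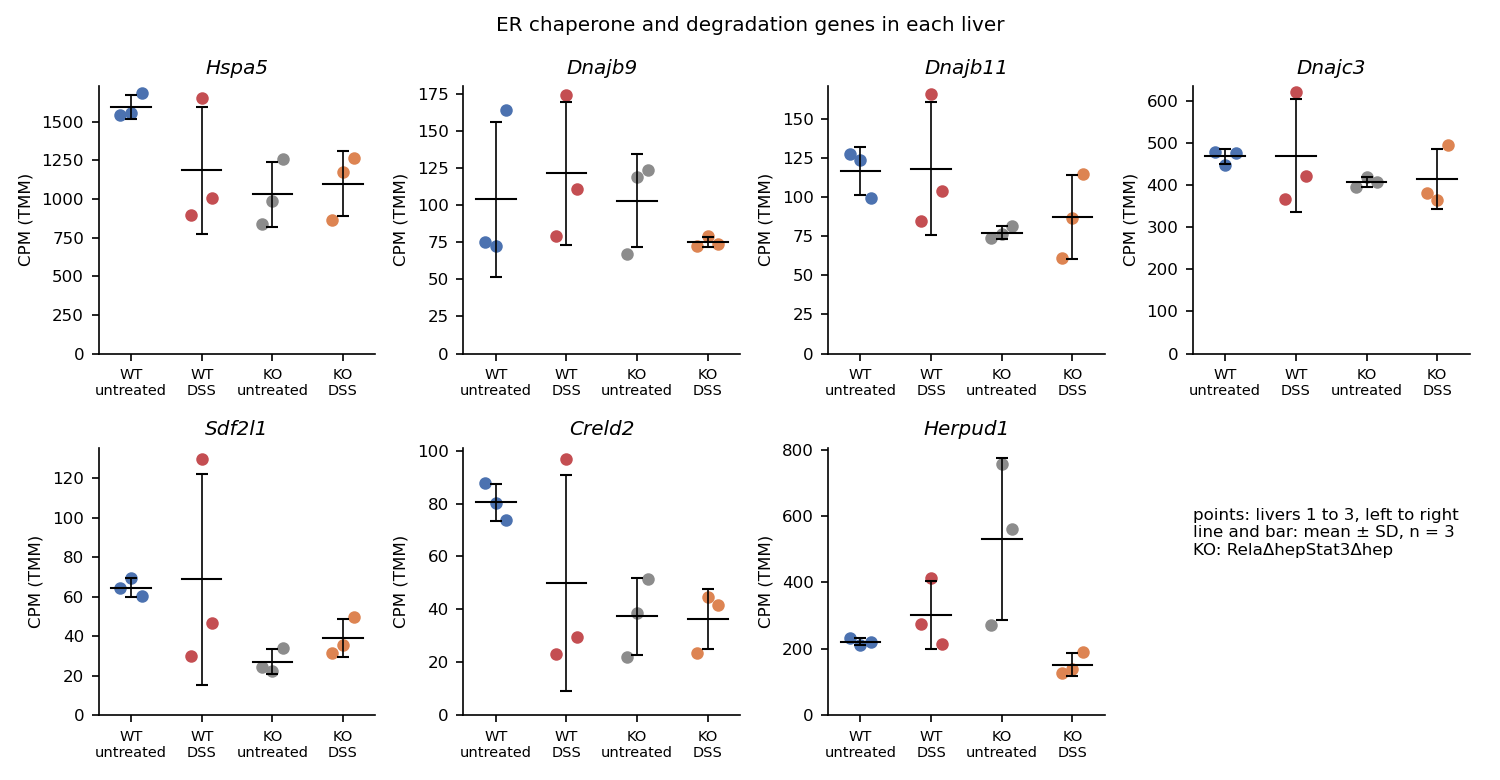
Level of each of the 7 genes in every liver (y axis, CPM scaled by TMM, from 0) by group (x axis); each point is 1 liver, and the line and bar are the mean and SD of 3 mice. In untreated mice 5 genes are lower in every knockout-labelled liver than in every wild-type liver, and Herpud1 is higher in every one.

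In untreated mice, 5 of the 7 genes were lower in every knockout-labelled liver than in every wild-type liver (Hspa5, Dnajb11, Dnajc3, Sdf2l1 and Creld2), and 1, Herpud1, was higher. No member passed the adjusted threshold in edgeR (11 genes did, 0.0623% of those tested), 4 had an unadjusted p under 0.05, as 11.7% of all tested genes did, and DESeq2 called 1, Herpud1. A group that lay wholly below was found for 10.7% of all tested genes, and one that lay wholly above for 9.56%. Marker sums of other cells also differed between these groups, at 1.95 to 3.87 CPM in wild-type and 0.455 to 0.877 CPM in knockout-labelled livers for 8 neutrophil markers, and at 6.999 to 10.4 and 3.99 to 5.41 CPM for 7 plasma and B cell markers. The sum of 5 bile duct markers went the other way, at 6.02 to 9.01 CPM in wild-type and 9.66 to 14.4 CPM in knockout-labelled livers. Their part was not tested.

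Hspa5, on the forward strand of chr2:34627490-34632051 in mm9 (ENSMUSG00000026864), measured 1545, 1559 and 1686 CPM in untreated wild-type livers and 840, 988 and 1260 CPM in untreated knockout-labelled livers. The groups did not overlap, and the wild-type livers were close to each other. The means were 1597 ± 77.7 and 1029 ± 213 CPM (SD, n = 3 each), a log2 difference of -0.63 (SE 0.251, edgeR adjusted p = 0.356).

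Sdf2l1, a luminal protein that works in a complex with Dnajb11, had the largest difference among the chaperone genes. Its gene is on the reverse strand of chr16:17130231-17132476 in mm9 (ENSMUSG00000022769). It measured 64.3, 69.4 and 60.1 CPM in untreated wild-type livers and 24.2, 22.4 and 34.2 CPM in untreated knockout-labelled livers. Each knockout-labelled liver was far below the lowest wild-type liver. The level was 2.40-fold lower, -1.26 on the log2 scale (SE 0.441, edgeR adjusted p = 0.326). DESeq2 did not call it (adjusted p = 0.0657). It was called in 1 of 12 fits that left out 1 liver (edgeR adjusted p from 0.0496 to 0.562), and with only the untreated groups in the fit, which called 60 genes in place of 11 (adjusted p = 0.0280).

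Creld2, an ER protein that rises under ER stress (forward strand of chr15:88650076-88657111 in mm9, ENSMUSG00000023272), measured 87.6, 80.1 and 73.7 CPM in untreated wild-type livers and 22.1, 38.5 and 51.3 CPM in untreated knockout-labelled livers. The groups did not overlap, but the knockout-labelled livers were spread widely. The log2 difference was -1.11, or 2.16-fold (edgeR adjusted p = 0.442).

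The J-domain genes differed less. Dnajb11, a soluble co-chaperone of Hspa5 that binds unfolded chains itself (forward strand of chr16:22857918-22879707 in mm9, ENSMUSG00000004460), measured 128, 123 and 99.2 CPM in untreated wild-type livers and 73.8, 76.2 and 81.7 CPM in untreated knockout-labelled livers. Its log2 difference was -0.60 (edgeR adjusted p = 0.379). Dnajc3, a co-chaperone also known as an inhibitor of the kinase PERK (forward strand of chr14:119337154-119380924 in mm9, ENSMUSG00000022136), measured 478, 448 and 477 CPM against 396, 418 and 407 CPM. These groups too were apart, by only -0.20 on the log2 scale (edgeR adjusted p = 0.741). Dnajb9, a co-chaperone that restrains the sensor Ern1 (reverse strand of chr12:45306884-45311055 in mm9, ENSMUSG00000014905), measured 75.3, 72.1 and 164 CPM against 66.8, 119 and 123 CPM. The Dnajb9 groups overlapped throughout, and the log2 difference of -0.01 lay within 1 standard error of 0.

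Herpud1, an ER membrane protein with a ubiquitin-like domain that takes part in the Hrd1 degradation complex, went the other way from the chaperones. Its gene is on the forward strand of chr8:96910338-96919277 in mm9 (ENSMUSG00000031770) and overlaps the antisense gene Gm15890 in no exon. Herpud1 measured 232, 210 and 220 CPM in untreated wild-type livers and 272, 757 and 560 CPM in untreated knockout-labelled livers. All the knockout-labelled livers were higher, the first by little and the second by most. The log2 difference was 1.26, or 2.40-fold (SE 0.330, edgeR adjusted p = 0.190), and DESeq2 gave 1.28 with an adjusted p of 0.00897, in a comparison where it called 2.30% of genes.

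After DSS the wild-type livers differed widely from each other, and no member was called there. The second DSS-treated wild-type liver was the highest of all 12 for Dnajb9, Dnajb11, Dnajc3, Sdf2l1 and Creld2, and the first and the third were low for Hspa5, Sdf2l1 and Creld2. By library totals alone it was the highest for Sdf2l1 only, at 98.5 CPM. In edgeR 0 of 7 members changed with DSS in wild-type mice (0.685% of genes did), 0 had an unadjusted p under 0.05 (14.5% of genes did), and DESeq2 also called 0 (5.59% of genes). The groups overlapped for each of the 7.

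Sdf2l1 measured 30.2, 130 and 46.6 CPM in DSS-treated wild-type livers, against 60.1 to 69.4 in untreated ones. The second liver was above and the others below every untreated liver. The log2 difference of 0.09 lay within 1 standard error of 0, and it was -0.76 without the second liver and 0.45 without the first. Creld2 measured 23.1, 96.8 and 29.4 CPM after DSS, again with the second liver above and the others below the untreated range. Its log2 difference was -0.69 (edgeR adjusted p = 0.586), and without the second liver it was -1.62 (adjusted p = 0.0586). Hspa5 measured 898, 1656 and 1004 CPM after DSS, 2 livers below and 1 within the untreated range, with a log2 difference of -0.43 (SE 0.251, edgeR adjusted p = 0.467), and -0.75 without the second liver. Scaled by library totals alone, the second liver had 1256 CPM of Hspa5 and 73.4 CPM of Creld2, and these 2 genes then lay below every untreated liver, as 11.6% of tested genes did.

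The J-domain genes showed the same order of livers. Dnajb11 measured 84.6, 166 and 104 CPM, Dnajc3 368, 621 and 420 CPM, and Dnajb9 79.2, 174 and 111 CPM in DSS-treated wild-type livers. The second liver stood highest for each. The log2 differences of Dnajb11 (0.02) and Dnajc3 (0.01) from untreated wild-type livers lay within 1 standard error of 0.

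**Figure D2:**
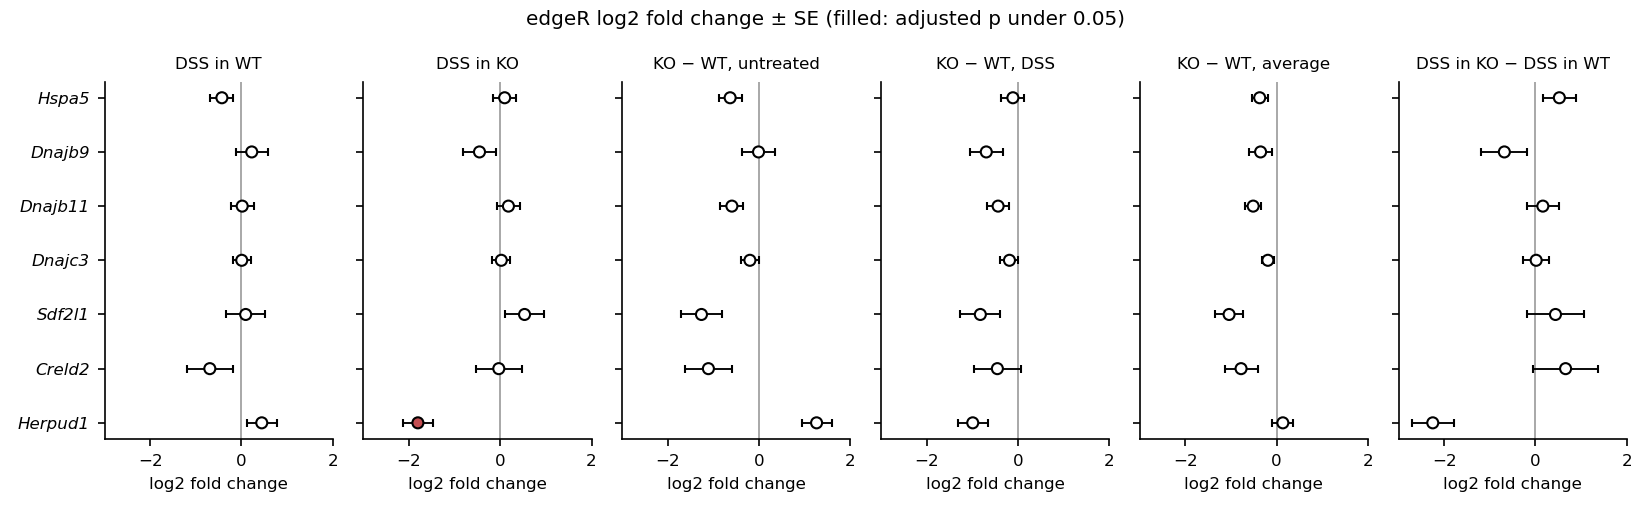
edgeR log2 fold change with its standard error (x axis) of each of the 7 genes (y axis) in the 6 comparisons, one panel each; a filled point marks an adjusted p under 0.05. Only Herpud1 with DSS in knockout-labelled mice is filled, at -1.80, while the chaperone genes lie at or left of 0 in untreated knockout-labelled against wild-type livers.

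In knockout-labelled mice Herpud1 fell with DSS and the chaperone genes did not pass the test. Herpud1 measured 126, 137 and 191 CPM in the DSS-treated livers against 272, 757 and 560 CPM in the untreated ones. Every treated liver was below every untreated liver, and all 3 were also below the 210 CPM of the lowest untreated wild-type liver. The fall was 3.49-fold, -1.80 on the log2 scale (SE 0.335, edgeR adjusted p = 0.00990). With DSS in these mice it was the 1 member of 7 called, where edgeR called 7.02% of genes and DESeq2 14.4%, and where the treated group lay wholly below the untreated one for 14.0% of genes. DESeq2 gave -1.83 with an adjusted p of 1.5e-06.

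The fall of Herpud1 was measured in livers that also differed in sex-linked transcripts. With sex as a covariate, a fit that rests on the third untreated wild-type liver, the value was -1.79 with an SE of 0.603 and an edgeR adjusted p of 0.330, and that fit called 4 genes in place of 1240. The call was also lost without the second untreated knockout-labelled liver (-1.45, adjusted p = 0.0507) and without the first DSS-treated one (-1.70, adjusted p = 0.0514), and it held in 10 of 12 fits that left out 1 liver.

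Clock transcripts moved in the same livers, and their part in the Herpud1 result was not tested. Of 16 clock genes, 8 fell and 0 rose in edgeR with DSS in knockout-labelled mice, beside 434 lower and 806 higher of 17652 tested genes. The clock genes had a median log2 difference of -1.57. Per2, a repressor of the clock, measured 30.4, 62.8 and 68.7 CPM in untreated and 5.51, 9.68 and 8.11 CPM in DSS-treated knockout-labelled livers (-2.80, edgeR adjusted p = 0.00764). The clock output factors Tef (-2.86, adjusted p = 0.00623) and Hlf (-1.61, adjusted p = 0.00174) fell as well, and the repressor Cry2 fell by less (-0.91, adjusted p = 0.0170). With sex as a covariate none of these 4 was called (edgeR adjusted p from 0.221 to 0.563), and the Cry2 call held in 9 of 12 fits that left out 1 liver. The first untreated knockout-labelled liver, the lowest of its group for Herpud1, was also the lowest of its group for Per2, Tef and Hlf. It was the lowest of its group for Hspa5, Dnajb9, Dnajb11, Dnajc3 and Creld2 as well, so this order was not particular to Herpud1. In wild-type mice 11 of 16 clock genes had lower fitted values with DSS (median -0.49), beside 47.8% of all tested genes. Per2 measured 27.9, 22.4 and 17.0 CPM untreated and 5.76, 16.3 and 6.43 CPM after DSS there (-1.24, edgeR adjusted p = 0.212). Herpud1 had a log2 difference of 0.44 there (edgeR adjusted p = 0.579). The clock repressor Nr1d1 was 43.3 to 108 CPM in wild-type livers and 3.15 to 8.61 CPM in knockout-labelled livers, over both treatments. Macrophage markers also moved, since the summed level of the 7 measured markers was 286 to 317 CPM in untreated and 579 to 936 CPM in DSS-treated knockout-labelled livers. Of 8 neutrophil markers the sum was 0.455 to 0.877 CPM untreated and 6.64 to 23.9 CPM treated, and of 8 stellate and fibroblast markers 466 to 538 and 582 to 746 CPM. The part of these cells was not tested.

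**Figure D3:**
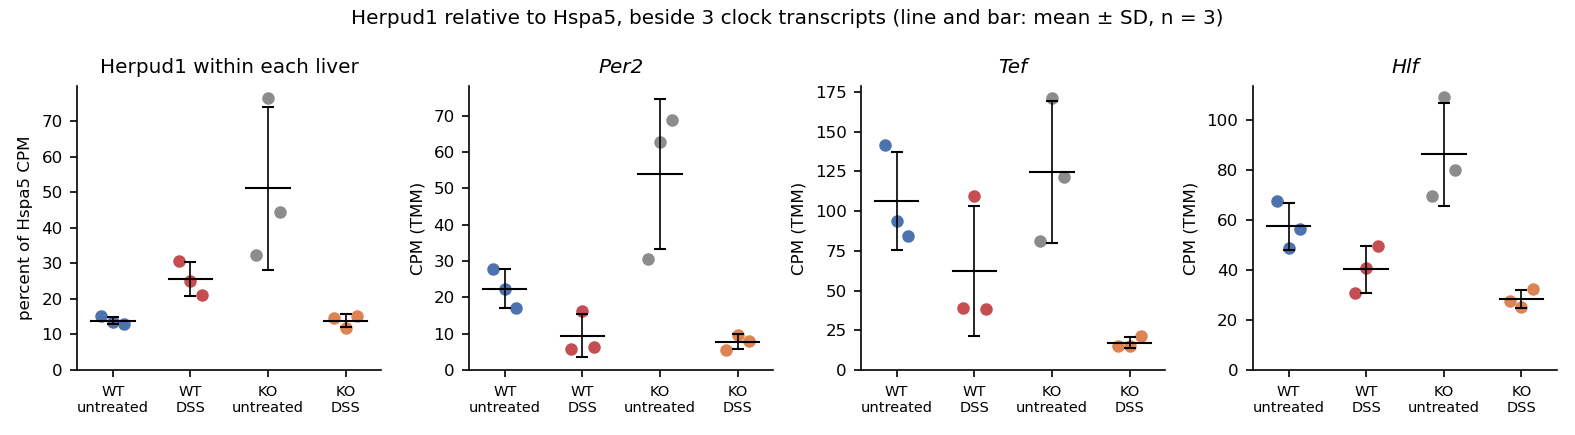
Herpud1 as a percent of the Hspa5 CPM of the same liver (first panel), and the clock transcripts Per2, Tef and Hlf in CPM, by group (x axis); points are livers, line and bar the mean and SD of 3 mice. Herpud1 reaches 32.3% to 76.6% of Hspa5 in untreated knockout-labelled livers and 11.7% to 15.1% after DSS, where Tef is also lowest and Per2 and Hlf are below every untreated knockout-labelled liver.

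The remaining members in knockout-labelled mice overlapped between treatments. Hspa5 measured 862, 1172 and 1267 CPM after DSS, with a log2 difference of 0.10 that lay within 1 standard error of 0. Sdf2l1 measured 31.6, 35.5 and 49.8 CPM (0.53, edgeR adjusted p = 0.499), and Dnajb9, at 72.1, 79.2 and 74.0 CPM, had a difference of -0.46 (adjusted p = 0.475). Creld2 (23.5, 44.5 and 41.5 CPM), Dnajb11 (61.2, 86.3 and 115 CPM) and Dnajc3 (382, 364 and 495 CPM) also overlapped their untreated range. Hspa5, Sdf2l1 and Creld2 thus stayed below the lowest untreated wild-type liver in every knockout-labelled liver of either treatment. The first and the third DSS-treated wild-type livers were also below that liver for each of these genes. The share of all tested genes with this order was not counted.

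Between the genotypes after DSS, all 7 members had lower fitted values in knockout-labelled livers, 5 of 7 by library totals, and none was called. For Hspa5, Dnajc3 and Creld2 the difference lay within 1 standard error of 0. The 3 knockout-labelled livers had high Xist and the 3 wild-type livers had Y-linked transcripts, so genotype and sex cannot be told apart after DSS, and with sex as a covariate edgeR called 5 genes in place of 59. Library totals moved the median of all tested genes in this comparison from 0.00 to 0.14, and 7 of 7 members lay below that median under either scaling. Herpud1 had the largest difference, -0.99 or 1.98-fold (SE 0.328, edgeR adjusted p = 0.217). Counts by edgeR were 0 of 7 (0.334% of genes), with 1 unadjusted p under 0.05 (14.3% of genes), and by DESeq2 0 of 7 (3.89% of genes). Herpud1 and Dnajb9 lay wholly below the wild-type livers, as did 7.98% of genes, and by library totals Herpud1 alone. Most of these values rested on the second DSS-treated wild-type liver. Without it Sdf2l1 went from -0.82 to 0.02, Hspa5 from -0.11 to 0.21, and Creld2 from -0.45 to 0.47. Herpud1 was then -0.69.

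The DSS responses of the genotypes differed most for Herpud1, by -2.25 on the log2 scale, or 4.75-fold (SE 0.465, edgeR adjusted p = 0.0624). It was not called in edgeR, which called 0 of 7 members and 0.408% of genes, with 1 unadjusted p under 0.05 (16.3% of genes). DESeq2 called this 1 member (-2.27, adjusted p = 0.00015) and 4.50% of genes. Averaged over both treatments, Sdf2l1 was 2.06-fold lower in knockout-labelled livers, -1.04 on the log2 scale (SE 0.310, edgeR adjusted p = 0.268), and Dnajb11 was -0.51 (SE 0.177, edgeR adjusted p = 0.331). Without the second DSS-treated wild-type liver the average of Sdf2l1 was -0.61, and without the first it was -1.22. In this average edgeR called 0 of 7 members (0.147% of genes) with 2 unadjusted p under 0.05 (9.94% of genes), and DESeq2 called 1, Sdf2l1 (-1.03, adjusted p = 0.0201), and 2.10% of genes.

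A ratio within a liver does not depend on the scaling between libraries. Herpud1 was 15%, 13.5% and 13.0% of the Hspa5 CPM in untreated wild-type livers and 30.7%, 24.9% and 21.2% in DSS-treated ones. In untreated knockout-labelled livers it was 32.3%, 76.6% and 44.5%, and after DSS 14.6%, 11.7% and 15.1%. The ratio was thus higher with DSS in each wild-type liver and lower with DSS in each knockout-labelled liver, a contrast described after its values were seen and given no test. It also moves with Hspa5. Herpud1 itself measured 276, 413 and 213 CPM in DSS-treated wild-type livers, beside 898, 1656 and 1004 CPM of Hspa5. The third of these livers lay within the untreated wild-type range for Herpud1 and below it for Hspa5. How many of all tested genes show such a contrast was not counted. Sdf2l1 was 3.36% to 7.85% of Hspa5 in wild-type livers and 2.27% to 3.93% in knockout-labelled livers, with 2.88%, 2.27% and 2.71% in the untreated ones. Dnajc3, the steadiest member in level, was 28.3% to 30.9% of Hspa5 in untreated wild-type livers and 31.0% to 47.1% in all the others.

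Most of the chaperone genes varied together between livers, and Dnajb9 and Herpud1 followed them less closely. Over the 12 livers Pearson's r of log2 CPM was 0.971 for Hspa5 with Creld2, 0.916 for Dnajb11 with Sdf2l1, 0.853 for Dnajc3 with Sdf2l1 and 0.842 for Hspa5 with Sdf2l1. Dnajb9 had an r of 0.331 to 0.536 with the other chaperone genes and 0.528 with Herpud1. Herpud1 had an r of -0.109 (Sdf2l1) to 0.227 (Dnajc3) with the remaining 5. Taken as deviations from the 4 group means, Herpud1 had an r of 0.657 with Hspa5 and 0.460 with Sdf2l1, beside 0.957 for Hspa5 with Creld2. These values describe 12 libraries that share their scaling, and the pairs were not recomputed without the second DSS-treated wild-type liver.

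Among 12712 candidate genes, those closest to the mean pattern of the 7 members over the 12 livers included other ER genes. Alg12, a mannosyltransferase of N-glycan assembly, had an r of 0.962. It was followed by Sel1l (0.930), the adaptor of the Hrd1 degradation complex, and Hyou1 (0.929), which exchanges nucleotide on Hspa5. The aminopeptidase Dnpep came next at 0.902, and the tenth gene, Shb, had 0.874. By deviations from the group means Tacc2 (0.981) came first, and Alg12 (0.962) and Sel1l (0.945) were again among the first 10. These are likenesses over 12 livers with no test.

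Other genes of the ER were read from lists of folding, degradation and entry genes, and those with no row in the table, such as Hsp90b1, Canx, Pdia4 and Syvn1, were not analysed here. In untreated knockout-labelled against wild-type livers, 15 of 16 folding genes had lower fitted values (median log2 difference -0.30), and 18 of 21 genes of ER entry and signal peptide removal did (-0.25), beside 49.8% of all tested genes (0.00). Degradation genes were 8 higher and 11 lower (-0.04). In that comparison edgeR called 0 genes of each of these 3 lists, with 4 folding, 2 degradation and 1 entry gene at an unadjusted p under 0.05, and DESeq2 called 1, 1 and 0 (the folding enzyme Pdia6 and Derl3). Over all tested genes 11.7% had such a p and DESeq2 called 2.30%. After DSS 13 of 16 folding (median -0.34), 17 of 21 entry (-0.42) and 18 of 19 degradation genes (-0.21) had lower fitted values. By library totals 13, 17 and 11 did. Unadjusted p under 0.05 numbered 5, 11 and 6, beside 14.3% of all tested genes, and edgeR called 0. DESeq2 called 2, 3 and 3, beside 3.89% of all tested genes. Genotype and sex cannot be told apart after DSS. Averaged over treatments, 16 of 16 folding (median -0.39), 20 of 21 entry (-0.35) and 18 of 19 degradation genes (-0.10) had lower fitted values. By library totals 15, 19 and 12 did. In this average 8, 13 and 5 genes of the lists had an unadjusted p under 0.05, beside 9.94% of all tested genes. DESeq2 called 2, 2 and 1, beside 2.10% of all tested genes. The average includes the DSS-treated livers and shares their limit on sex. These counts describe the lists and were not tested against other genes.

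From these lists 2 genes passed the edgeR threshold. Derl3 was 1 of 19 degradation genes in the genotype average, where edgeR called 0.147% of all tested genes. Txndc5 was 1 of 16 folding genes with DSS in knockout-labelled mice, where edgeR called 7.02%. Derl3, a derlin of the degradation channel that is typical of cells with heavy secretion, measured 8.51, 6.37 and 2.43 CPM in untreated and 3.28, 8.14 and 5.66 CPM in DSS-treated wild-type livers. In knockout-labelled livers it measured 0.837, 0.538 and 1.13 CPM, and after DSS 0.785, 2.08 and 1.64 CPM. Every knockout-labelled liver was below every wild-type liver, and the average difference was -2.35 (SE 0.360, edgeR adjusted p = 0.0227), called in 4 of 12 fits that left out 1 liver. Derl3 is also abundant in plasma cells, and the plasma and B cell marker sums given for untreated mice were lower in every knockout-labelled liver. After DSS the sums overlapped, at 3.28 to 6.26 CPM in wild-type and 4.58 to 14.9 CPM in knockout-labelled livers, and the part of such cells was not tested. Txndc5, a thioredoxin-domain folding enzyme, measured 157, 197 and 195 CPM in untreated and 99.4, 120 and 124 CPM in DSS-treated knockout-labelled livers and fell by 0.68 on the log2 scale (SE 0.180, edgeR adjusted p = 0.0413), called in 3 of 12 such fits. With sex as a covariate neither was called (edgeR adjusted p = 0.186 for Derl3 and 0.584 for Txndc5). That fit called few genes at all, 9 in place of 26 for the average and 4 in place of 1240 with DSS in knockout-labelled mice.

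Of 10 measured sensors and factors of the unfolded protein response, edgeR called 0 in each of the 6 comparisons, with at most 3 at an unadjusted p under 0.05, and DESeq2 called 1, Trib3, in untreated mice and on average. Over all tested genes 9.94% to 24.1% had such a p and DESeq2 called 2.10% to 14.4%, depending on the comparison. The factor Xbp1, which Ern1 splices into its active form, measured 306 ± 92.4 CPM in untreated and 343 ± 103 CPM in DSS-treated wild-type livers, and 236 ± 72.6 and 245 ± 16.1 CPM in knockout-labelled livers (SD, n = 3). Atf4, the factor downstream of PERK, had log2 differences with DSS of 0.32 in wild-type mice (edgeR adjusted p = 0.341) and 0.40 in knockout-labelled mice (adjusted p = 0.116). Atf6 was -0.33 in knockout-labelled against wild-type livers after DSS (adjusted p = 0.284), and Ern1 was -0.48 with DSS in knockout-labelled mice (adjusted p = 0.284). Gene counts do not separate spliced from unspliced Xbp1, and Ddit3 has no row in the table.

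**Figure D4:**
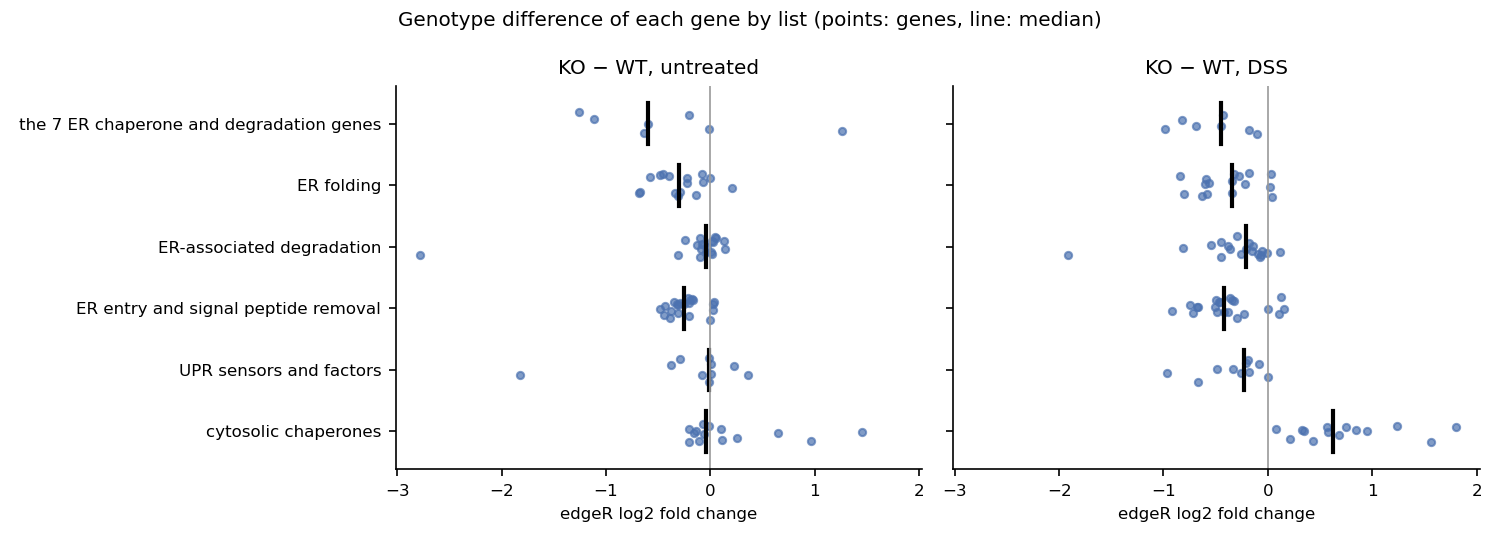
edgeR log2 fold change of knockout-labelled against wild-type livers (x axis) for each gene of the 7 members and of the other lists (y axis), untreated and after DSS; points are genes and the line is the list's median. The medians of the members (-0.60 untreated, -0.45 after DSS), of folding (-0.30, -0.34) and of entry genes (-0.25, -0.42) lie left of 0. After DSS the median of the cytosolic list, which includes the mitochondrial Hspd1 and Hspe1, lies to the right (0.63).

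Chaperones outside the ER, listed here as cytosolic although Hspd1 and Hspe1 work in mitochondria, had a different pattern. All 14 of 14 measured had higher fitted values in knockout-labelled than in wild-type livers after DSS, with a median of 0.63, 10 unadjusted p under 0.05 and 1 called, beside 14.3% of all tested genes at such a p, 0.334% called and 50.3% with lower fitted values. Genotype and sex cannot be told apart in this comparison. Marker sums also differed after DSS, at 1.92 to 3.95 CPM in wild-type and 6.01 to 10.6 CPM in knockout-labelled livers for 7 T and NK cell markers, and 7 of 7 endothelial (median 0.51) and 7 of 7 macrophage markers (0.41) had higher fitted values in the latter. Their part was not tested, here or for the 7 ER members. That gene, Hsp90aa1, measured 175, 154 and 166 CPM in DSS-treated wild-type livers and 452, 419 and 596 CPM in DSS-treated knockout-labelled livers (1.57, edgeR adjusted p = 0.00105; 0.272 with sex as a covariate). With DSS in wild-type mice Hsp90aa1 (-1.24, edgeR adjusted p = 0.00756) and Hsph1, which exchanges nucleotide on cytosolic chaperones (-1.33, adjusted p = 0.0478) fell. The Hsp90aa1 call in wild-type mice held in 12 of 12 fits that left out 1 liver and that of Hsph1 in 2 of 12 (adjusted p up to 0.118).

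The acute-phase load was taken as the summed CPM of 18 acute-phase secreted genes, the measured ones of 32 listed. It was carried mainly by the haem scavenger Hpx (18.5% of the load as the mean of its share in each liver), the fibrinogen chains Fgb (16.9%), Fga (16.8%) and Fgg (13.0%), and Itih4 (9.22%). The load was 21546, 27793 and 21780 CPM in untreated and 28956, 246355 and 76406 CPM in DSS-treated wild-type livers. In knockout-labelled livers it was 22119, 19804 and 19073 CPM untreated and 24297, 25362 and 29485 CPM with DSS. Only 2 of the 12 livers, both DSS-treated wild-type, stood apart, and with DSS 17 of the 18 genes had higher fitted values in each genotype, with medians of 2.12 and 0.48. In wild-type mice 0 of the 18 were called by edgeR although 17 had an unadjusted p under 0.05, and DESeq2 called 14 of them, beside 0.685%, 14.5% and 5.59% of all tested genes. In knockout-labelled mice edgeR called 1, 6 had an unadjusted p under 0.05 and DESeq2 called 4, beside 7.02%, 24.1% and 14.4%.

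Set against the members, the load differed far more between livers than the chaperones did. The load divided by the summed CPM of the 7 members was 8.25, 10.8 and 7.84 in untreated wild-type livers and 16.5, 75.7 and 39.6 in DSS-treated ones. It was 13.1, 8.19 and 7.57 in untreated and 15.6, 13.2 and 13.2 in DSS-treated knockout-labelled livers. The second DSS-treated wild-type liver thus had 75.7 units of acute-phase transcript per unit of member transcript, and its Hspa5 level of 1656 CPM lay within the untreated wild-type range. The third, with the second highest load, had 1004 CPM of Hspa5 and 29.4 CPM of Creld2, below every untreated wild-type liver.

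Among the members 3 followed the load over the 12 livers by an unadjusted permutation test, and none after adjustment over all tested genes. Sdf2l1 had a Pearson's r of 0.673 (permutation p = 0.0236, adjusted 0.311) and a Spearman's rho of 0.406 (permutation p = 0.193). Dnajb11 had an r of 0.642 (permutation p = 0.0226, adjusted 0.308) and a rho of 0.483 (permutation p = 0.116). Dnajc3 had an r of 0.638 (permutation p = 0.0404, adjusted 0.365) and a rho of 0.238 (permutation p = 0.457). With the mean of the genes' log2 CPM as the load, rho was 0.629 for Sdf2l1 (unadjusted permutation p = 0.0321) and 0.650 for Dnajb11 (permutation p = 0.0262). For Dnajc3 it was 0.392 (permutation p = 0.210). A positive r with a p under 0.05 was found for 7.58% of all tested genes, and an adjusted p under 0.05 for 0.289%. Dnajb9 had an r of 0.484, Creld2 0.270, Hspa5 0.261 and Herpud1 0.081. These were 7 relations in all, in 2-sided tests, and the load includes the liver whose scaling factor was lowest.

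By Pearson's r the relations rested on 1 liver, the one with the highest load. Without the second DSS-treated wild-type liver alone r was 0.23 for Sdf2l1, 0.279 for Dnajb11 and -0.013 for Dnajc3, and without the third alone it was 0.711, 0.660 and 0.717. Without both of them, the livers farthest from the median load, r was 0.277 for Sdf2l1, 0.302 for Dnajb11, -0.024 for Dnajc3 and -0.617 for Herpud1. Within the 6 wild-type livers r was 0.587 for Sdf2l1, 0.763 for Herpud1 and 0.581 for Dnajb9. Their exact permutation p were 0.258, 0.103 and 0.225, and Spearman's rho was 0.086, 0.314 and 0.543. Within the 6 knockout-labelled livers r was 0.730, -0.801 and -0.738. The opposite signs for Herpud1 and Dnajb9 were not tested as a difference, and the exact permutation p of Herpud1 within knockout-labelled livers was 0.0667. In those 6 livers every DSS-treated load exceeded every untreated one. This r therefore cannot be told apart from the fall of Herpud1 with DSS. Herpud1 had an r of 0.294 when taken as deviations from the 4 group means. As deviations from the 4 group means r was 0.912 for Sdf2l1 (exact permutation p = 0.0278), 0.747 for Dnajb11 (exact p = 0.0409) and 0.837 for Dnajc3 (exact p = 0.0602), with adjusted values over all tested genes from 0.736 to 0.753. Spearman's rho was then 0.622, 0.650 and 0.490 (exact permutation p = 0.0594, 0.105 and 0.231). Within groups the load differed mainly among DSS-treated wild-type livers, from 28956 CPM to the 246355 CPM of the second. The deviations were not recomputed without that liver.

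**Figure D5:**
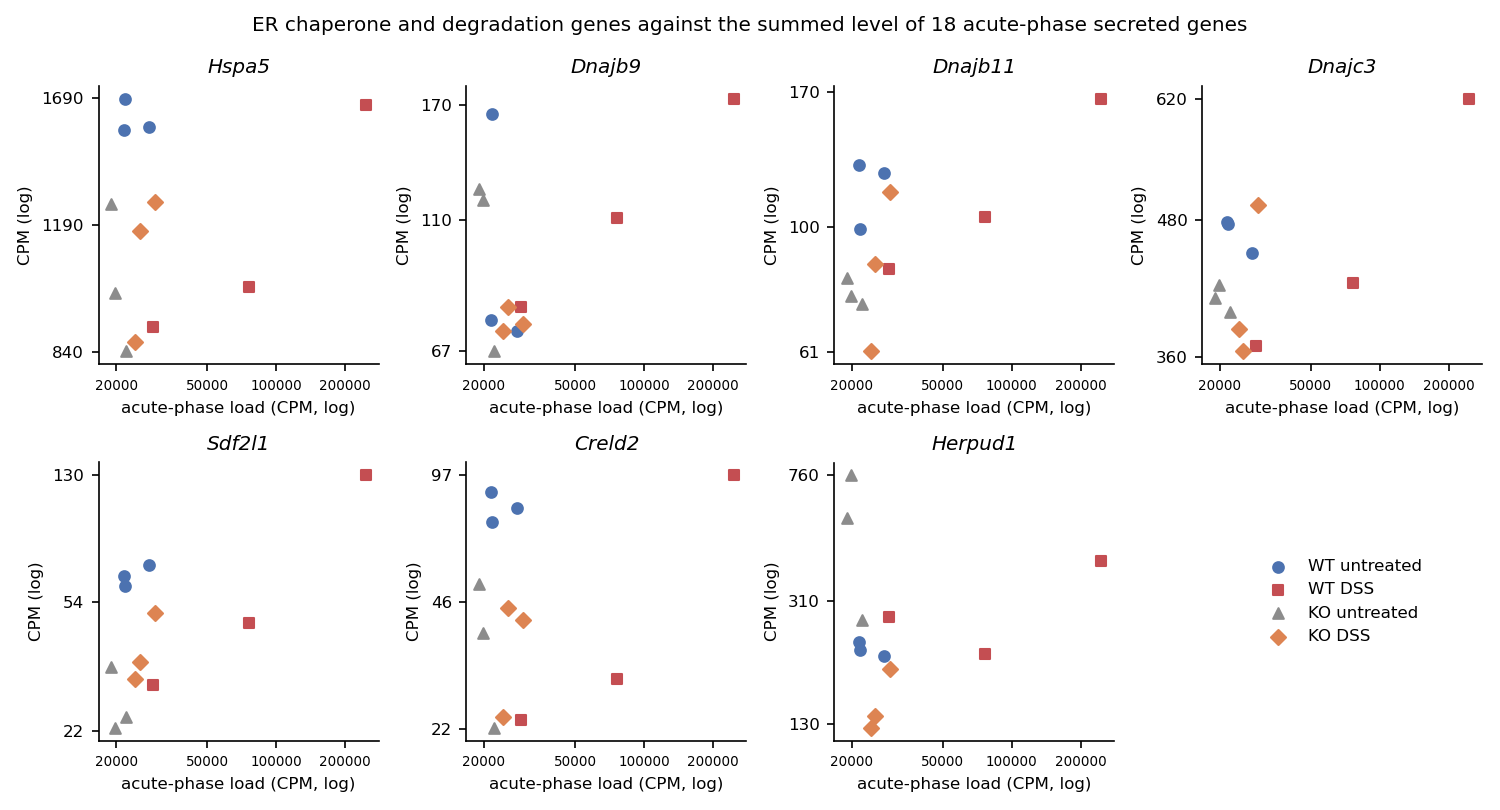
Level of each of the 7 genes (y axis, CPM, log scale) against the summed level of 18 acute-phase secreted genes (x axis, CPM, log scale); each point is 1 of 12 livers, coloured and shaped by group. The other 10 livers lie between 19073 and 29485 CPM of load, beside 2 DSS-treated wild-type livers at 76406 and 246355 CPM.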

How the data were processed

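The deposited table holds estimated counts per gene that the authors made from rRNA-depleted, paired-end liver reads with fastp, HISAT2 (mm9) and StringTie and wrote as whole numbers, not normalized. Gene names and mm9 positions came from GENCODE vM1. Groups came from the sample labels. Counts were fitted with edgeR 4.0.16 and limma 3.58.1 under R 4.3.3: filterByExpr (minimum count 10), TMM, and robust quasi-likelihood tests in 1 model of 4 groups and 12 libraries. Benjamini-Hochberg adjusted p-values over the 17652 tested genes were called under 0.05. A log2 fold change smaller than its standard error was read as having no direction. Expression over livers used log2 CPM with a pseudocount of 0.5, 100000 random permutations of the 12 livers, all 1296 permutations within groups or all 720 of 6 livers, two-sided. The alternatives were DESeq2 1.42.0 (Wald test), its size factors in edgeR, no filter, a fit of just the compared groups, a replicate block, a sex covariate (female above 100 CPM of Xist), each library left out and, added after seeing the data, library totals alone. For the load they were a mean of log2 values, the other scalings, a pseudocount of 2, deviations from group means, each genotype alone and each library left out. Adjusting the load relations over the 7 members, the setting planned first, is given as an alternative, and dropping the 2 livers farthest from the median load was added. The steps were tested on simulated data. The members and lists were chosen with earlier results of these data known. Named genes were the members, the genes of the other ER lists and cytosolic chaperones past the threshold or with the highest levels, listed response factors, clock genes and load genes, and the 10 most like the members by each measure; Pdia6 and Trib3 were named after their values were seen. Per the study's methods the mice were littermates housed together before treatment. Which mice of a group shared a litter is not given in the sources used here. The edgeR p-values of the main fit set a difference against a spread between mice that was estimated from all 4 groups together. Those of the load relations come from permutations. Promoter sequences and starts came from RefSeq (GRCm38.p6), whose coordinates are not those of mm9. Columns of per-sample values left unused numbered 0.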

Additional observations from a re-analysis of the deposited data

Results flagged for a closer look

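The DSS response of Hsp90aa1, a cytosolic chaperone, differed between the genotypes by 1.64 on the log2 scale (SE 0.23, edgeR adjusted p = 0.0100). Hsp90aa1 measured 423, 366 and 383 CPM in untreated and 175, 154 and 166 CPM in DSS-treated wild-type livers, and 399, 338 and 379 CPM in untreated and 452, 419 and 596 CPM in DSS-treated knockout-labelled livers. With sex as a covariate the edgeR adjusted p was 0.514, in a fit that called 4 genes in place of 72. Mbl2, a secreted lectin of the acute-phase list, differed by 1.33 (SE 0.305, edgeR adjusted p = 0.0810), and it stands here because every DSS-treated wild-type liver lay below the untreated wild-type mean and every DSS-treated knockout-labelled liver above the untreated knockout-labelled mean, although the wild-type groups overlapped. Mbl2 measured 292, 354 and 477 CPM in untreated and 263, 201 and 307 CPM in DSS-treated wild-type livers, and 248, 299 and 222 CPM in untreated and 502, 436 and 388 CPM in DSS-treated knockout-labelled livers. The log2 difference of Mbl2 with DSS was -0.54 in wild-type mice (edgeR adjusted p = 0.264) and 0.79 in knockout-labelled mice (adjusted p = 0.0466). The latter was called in 4 of 12 fits that left out 1 liver (adjusted p up to 0.168). It was not called with sex as a covariate (adjusted p = 0.865), in a fit that called 4 genes in place of 1240.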

How the results depend on the processing

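Of 784 values of single members under the alternatives, 758 kept their side of the threshold and, where the main value exceeded its standard error, their direction. Of the rest 3 lost and 7 gained significance, and 15 moved by more than the main standard error. A further 1, larger than its standard error, changed sign, to a value within its standard error. Sign changes of values smaller than their standard error, as for Hspa5 and Creld2 between genotypes after DSS, were not counted. The call of 1 member with DSS in knockout-labelled mice became 0 with sex as a covariate and ranged from 0 to 1 when a library was left out. Against the main count of 0 in untreated mice, DESeq2 and the fit of only the groups compared each called 1, and leaving out a library gave 0 to 1. For the genotype average and for the difference between genotypes in the DSS response, DESeq2 called 1 and leaving out a library gave 0 to 1. The difference in Sdf2l1 between genotypes after DSS ran from -1.18 to 0.0232 when a library was left out, the highest without the second DSS-treated wild-type liver, where it lay within 1 standard error of 0. Of the other ER lists, response factors included, 2 genes were called in at least 1 comparison (Derl3 and Txndc5), 11 in DESeq2, 1 by library totals, 0 with sex as a covariate and 0 to 9 with a library left out, 9 of them without the first DSS-treated wild-type liver. With the replicate number as a block there was 1 such gene, Herpud1 with DSS in knockout-labelled mice had -1.74 (edgeR adjusted p = 0.0130), and no member's call changed. Correlations of same-numbered livers ran from -0.07 to 0.21, so the numbers were not taken as pairs. No member followed the load after adjustment in any setting, by the 7 relations alone included. Unadjusted, 3 did so, and 0 without the second DSS-treated wild-type liver, 0 without the 2 farthest livers, 0 within either genotype, 1 by library totals, 2 by deviations from group means, 4 without the third untreated liver of either genotype, and 3 in the other settings. The causes were not tested. Each member had at least 1626 counts in every library, so depth limited none of these values.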
